A study of Rattus norvegicus with 6 samples.

Results

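Scn2b, Scn3b and Scn4b, the genes of the sodium channel beta 2, beta 3 and beta 4 subunits, were looked up by symbol among the 43350 gene rows of the deposited table. All 3 were found, but on 2 distinct rows, because Scn2b and Scn4b lie next to each other and the authors' assembly placed both on 1 joined row. The rule took a protein-coding row first and then the row with the most reads, which gave that joined row for both genes, and a further row carries the name Scn4b alone. The samples were the ipsilateral lumbar 4 to 6 dorsal root ganglia (DRG) of 3 CCI rats and 3 sham rats, all male Sprague-Dawley, taken on day 11. CCI, the chronic constriction injury, is a loose ligation of the left sciatic nerve, and in the sham rats the nerve was exposed in the same way but not tied. The sham samples are labelled with no treatment, and the labels give no age. The sequenced rats were drawn from animals that had shown the pain behaviour foreseen for their group. The library protocol in the labels mentions a pooled sample, whereas the methods describe ganglia of 1 rat in each sample, and each library is taken here as 1 rat.

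Voltage-gated sodium channels carry the rising phase of the action potential and consist of a large pore-forming alpha subunit with smaller beta subunits beside it. A beta subunit crosses the membrane once and exposes an immunoglobulin-like domain outside the cell. Beta 2 and beta 4 are joined to the alpha subunit by a disulfide bond, whereas beta 3 is held without a covalent bond. They alter the gating of the channel and how much of it reaches the surface, and they also act as cell adhesion molecules. The cytoplasmic end of beta 4 is known for its part in resurgent sodium current in large, fast-firing neurons.

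The libraries held 75423546 to 87615743 counted reads. Of the injury-induced neuronal genes Atf3, Gal, Sprr1a, Npy, Gap43, Vip, Nts, Sox11 and Jun, 8 of 9 were higher in CCI at the limits explained below. The summed level of the list was 423 to 728 CPM (counts scaled to library size) in CCI and 176 to 189 CPM in sham. All of these genes but Nts were already reported by the study as raised in the same libraries, so this is no independent check of the group labels. All 8 pan-neuronal markers were present, with Tubb3 at 1388 ± 89.1 FPKM in CCI and 1109 ± 81.9 FPKM in sham (SD, n = 3). FPKM is the number of reads scaled to row length and to library size. The summed level of skeletal muscle markers was 694 CPM in sham 1 and 162 to 192 CPM in the other 5 libraries, and results without sham 1 are given where they matter. The summed level of macrophage markers was 108 to 157 CPM in CCI and 81.9 to 106 CPM in sham.

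The joined Scn2b;Scn4b row covers chr8:49418965-49451916 on the plus strand in the coordinates of the rat genome that the study calls V101. It gathers 5 transcripts, of which 3 were assembled by the authors. Scn2b has no other row. The row named Scn4b alone lies at chr8:49456905-49460370, starts 4.99 kb past the end of the joined row, and consists of 1 assembled transcript with no strand and no gene type. Its counts were 1.29% to 2.00% of those of the joined row. Reads of the joined row cannot be assigned to Scn2b or to Scn4b, so a change of either gene is seen there only as far as it moves their sum. Scn3b lies on the same chromosome at chr8:44136496-44165363, also on the plus strand. An unnamed minus-strand row lies within the joined row, and the minus-strand row of Gramd1b overlaps the end of the Scn3b row. The library kit marks strand, but whether strand was used in counting is not given in the sources used here, so reads from these overlaps could have entered the beta subunit rows.

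**Figure D1:**
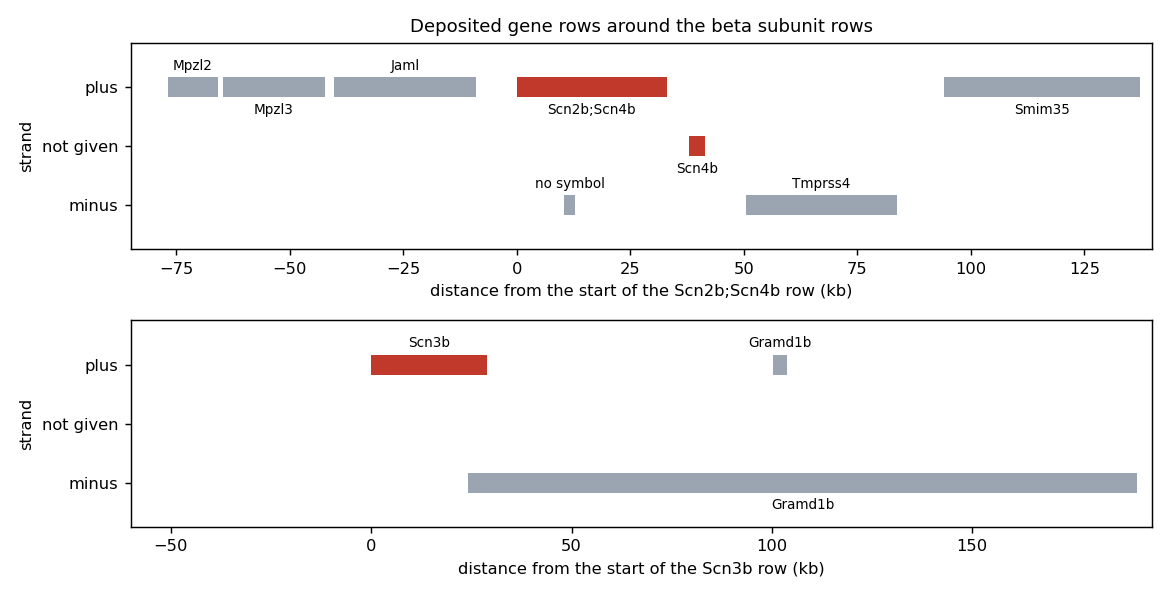
Map of the deposited gene rows near the joined Scn2b;Scn4b row (top) and the Scn3b row (bottom), drawn as bars along the distance in kb from the start of that row, with the strand given in the table on the vertical axis. Beta subunit rows are red and other rows grey; the separate Scn4b row starts 4.99 kb past the end of the joined row, and the Gramd1b row overlaps the end of the Scn3b row on the other strand.

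RefSeq lists Scn2b and Scn4b as separate genes. It has an entry for all 3 genes and a promoter sequence for 2 of them, Scn2b and Scn4b. Their 250 bases before the start of the gene are shown here, 5′ to 3′ on the plus strand, from the GRCr8 build, whose coordinates are not those of the deposited table. The Scn2b window is chr8:54322133-54322382 and the Scn4b window is chr8:54343623-54343872. Capitals mark each CpG, a C followed by a G.
Scn2b: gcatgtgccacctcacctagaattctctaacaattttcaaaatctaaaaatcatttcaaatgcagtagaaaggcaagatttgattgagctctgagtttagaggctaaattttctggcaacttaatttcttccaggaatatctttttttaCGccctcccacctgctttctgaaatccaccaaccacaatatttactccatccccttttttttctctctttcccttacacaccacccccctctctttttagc
Scn4b: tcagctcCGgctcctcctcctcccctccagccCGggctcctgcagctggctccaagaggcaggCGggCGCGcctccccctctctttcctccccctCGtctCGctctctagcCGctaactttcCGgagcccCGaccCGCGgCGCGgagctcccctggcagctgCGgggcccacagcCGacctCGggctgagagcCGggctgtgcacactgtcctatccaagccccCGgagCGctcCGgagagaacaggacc
The Scn2b window held 1 CpG and was 38.8% G or C, whereas the Scn4b window held 21 CpGs and was 71.6% G or C. Over the windows of 33469 genes the medians were 5 CpGs and 51.2%. The 2 neighbours therefore begin in stretches of very different base composition, although the deposited table counts their reads together.

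The deposited annotation gives the joined row 30 Gene Ontology terms and the Scn3b row 34 terms, of which 22 were shared. The shared terms include the voltage-gated sodium channel complex, sodium channel regulator activity, ion channel binding and nervous system development. Sensory perception of pain and protein localization to the plasma membrane were listed for the Scn3b row and not for the joined row, and response to pyrethroid for the joined row and not for the Scn3b row. The separate Scn4b row carries no terms.

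No beta subunit row passed the limits for a change between CCI and sham. The test was edgeR's quasi-likelihood test over 26663 rows with a mean of at least 0.5 FPKM, and a row counted as changed when its unadjusted p was under 0.05 and its log2 fold change reached 0.58 in either direction, the limits of the study. These limits called 3.83% of all rows tested, and a Benjamini-Hochberg adjusted p under 0.05 called 0.0938%. Both rows chosen by the rule were tested, and neither was called by either criterion. Bulk tissue was sequenced, so fewer cells of a type and less RNA per cell cannot be told apart in any of the values below.

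The joined Scn2b;Scn4b row had the higher level of the 2 rows. It measured 42.2, 41.4 and 39.2 FPKM in CCI 1, 2 and 3 and 39.4, 44.6 and 44.1 FPKM in sham 1, 2 and 3. The groups overlapped, with sham 1 lying beside CCI 3 at the low end and sham 2 and sham 3 above every CCI library. The means were 40.9 ± 1.56 FPKM in CCI and 42.7 ± 2.87 FPKM in sham (SD, n = 3). The log2 fold change, CCI over sham, was -0.08 (standard error 0.07, 95% interval -0.25 to 0.09, adjusted p = 0.779 in edgeR's quasi-likelihood test). As a fold this interval runs from 0.843 to 1.07, inside the size limit on both sides, for the summed signal of Scn2b and Scn4b. Leaving out sham 1 gave -0.14 (unadjusted p = 0.0616 in edgeR's test), the fold change farthest from 0 with a library left out, and without sham 2 it was -0.04.

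Scn3b encodes the beta 3 subunit, which is known for its expression in small sensory neurons. Its row measured 7.80, 6.42 and 6.99 FPKM in CCI 1, 2 and 3 and 5.35, 5.94 and 7.45 FPKM in sham 1, 2 and 3, from 6660 to 9002 reads. Sham 3 lay among the CCI libraries and the other sham libraries lay below them. The means were 7.07 ± 0.695 FPKM in CCI and 6.25 ± 1.08 FPKM in sham (SD, n = 3). On the log2 scale CCI minus sham was 0.16 (standard error 0.14, 95% interval -0.18 to 0.50, adjusted p = 0.768 by edgeR's quasi-likelihood test). The difference was within the spread between rats, and it moved with several libraries. Without sham 3 the log2 fold change was 0.31 (unadjusted p = 0.0307 in edgeR's test, still under the size limit), and without sham 1 or CCI 1 it was 0.06 or 0.08.

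The row that carries the name Scn4b alone was examined after the joined row had been seen, as the 1 place in the table where Scn4b is listed without Scn2b. It measured 1.45, 1.87 and 2.05 FPKM in CCI 1, 2 and 3 and 2.04, 2.38 and 2.32 FPKM in sham 1, 2 and 3, from 448 to 739 reads. Sham 2 and sham 3 were above every CCI library, and sham 1 was level with CCI 3. Scaled to effective library size, the lowest sham library, at 7.76 CPM, stayed just above the highest CCI library, at 7.73 CPM, and 8.7% of all rows tested likewise had every CCI library below every sham library. The log2 fold change was -0.35 (standard error 0.16, 95% interval -0.73 to 0.03, adjusted p = 0.513 in edgeR's quasi-likelihood test), and the row was not called. This interval, from a 0.603-fold to a 1.02-fold level, still holds a fall beyond the size limit. CCI 1 was the lowest library, and without it the log2 fold change was -0.22. Without CCI 3 it was -0.45, with a 95% interval of -0.87 to -0.03, still under the size limit. In edgeR's test that fit gave an unadjusted p = 0.0384 and an adjusted p = 0.463. Since this row has no strand and lies outside the joined row, its level need not be that of Scn4b as a whole.

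**Figure D2:**
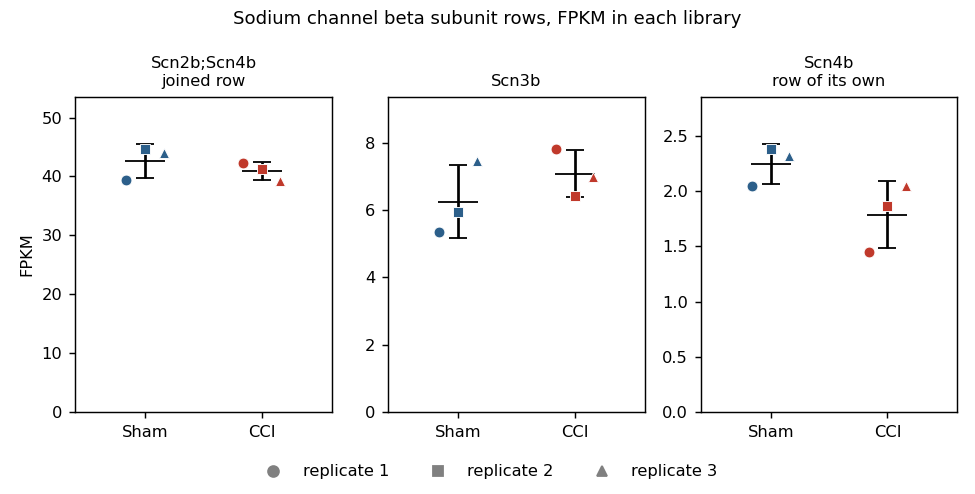
FPKM of each beta subunit row in the 3 sham (blue) and 3 CCI (red) libraries, 1 point per rat with the replicate number as its shape, and the mean with its SD as a black bar. The groups overlap in the joined row and in Scn3b, and the separate Scn4b row ranges from 1.45 to 2.38 FPKM with sham 1 level with CCI 3.

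The order of levels per length was the same in all 6 libraries, with the joined row above Scn3b and Scn3b above the separate Scn4b row, and no ranges of these rows met. The joined row was 5.41 to 6.44 times Scn3b in CCI and 5.91 to 7.51 times Scn3b in sham. This ratio sets a sum of 2 genes against 1 gene and uses the authors' row length, so it is no ratio of protein subunits. Between groups it differed by -0.25 on the log2 scale (exact permutation test, two-sided, p = 0.2). The ratio of the separate Scn4b row to Scn3b was 0.186, 0.291 and 0.293 in CCI 1, 2 and 3 and 0.382, 0.4 and 0.312 in sham 1, 2 and 3. Every CCI library was below every sham library, a difference of -0.53 on the log2 scale (exact permutation test, two-sided, p = 0.1). That is the smallest p that 3 rats against 3 can give, and adjusted over the 3 pairs of rows it was 0.2 by the same permutation test. Without CCI 1, the library with the lowest ratio, the difference was -0.31, and over the other libraries left out it ran from -0.64 to -0.46. The ratio of the separate Scn4b row to the joined row was 0.0343, 0.0451 and 0.0522 in CCI 1, 2 and 3 and 0.0518, 0.0533 and 0.0527 in sham 1, 2 and 3. Only CCI 3 reached the narrow sham range, and the difference was -0.28 on the log2 scale (exact permutation test, two-sided, p = 0.2). With 3 rats in each group these tests could not reach a p under 0.05, so they do not settle whether the rows changed unequally. A ratio of Scn4b to Scn2b could not be formed.

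The genes listed as alpha subunits gave no call in the same edgeR test. All 9 genes described here were tested, 8 of them with a log2 fold change below 0, and their median log2 fold change was -0.15. The largest differences downwards were in Scn1a and Scn8a, which encode the channels of large myelinated neurons and nodes of Ranvier. Scn8a measured 25.6, 28.5 and 28.3 FPKM in CCI 1, 2 and 3 and 36.6, 36.1 and 37.8 FPKM in sham 1, 2 and 3, a clear separation of the groups with a log2 fold change of -0.44 (95% interval -0.58 to -0.30, adjusted p = 0.0789 in edgeR's quasi-likelihood test). Scn1a measured 9.42, 10.2 and 11.2 FPKM in CCI and 14.8, 15.7 and 13.5 FPKM in sham, a log2 fold change of -0.53 (95% interval -0.73 to -0.33, adjusted p = 0.109 in the same edgeR test), and it passed the unadjusted limits without CCI 3, at -0.59. DESeq2 gave both genes an adjusted p under 0.05 (3.77e-06 for Scn8a and 4.29e-05 for Scn1a), with log2 fold changes of -0.44 and -0.53 that stayed under the size limit. Over the other 15 alternatives the adjusted p was 0.0346 to 0.26 for Scn8a and 0.0537 to 0.319 for Scn1a, the lowest in the edgeR or limma fits being that of protein-coding rows alone. The channels of nociceptors, Scn10a and Scn11a, had log2 fold changes of -0.12 and -0.15. Scn9a, on the same list, was at -0.28 (95% interval -0.73 to 0.18), and at -0.41 to -0.03 over 16 alternatives. Scn3a, a channel of the embryonic nervous system, was the 1 alpha subunit with a higher mean in CCI, at 3.79, 3.21 and 3.16 FPKM against 1.29, 3.13 and 1.32 FPKM. Sham 2 reached the CCI level, and without it the log2 fold change went from 0.81 to 1.36 (edgeR, adjusted p = 0.0476). Scn3a passed the unadjusted limits in 5 of 16 alternatives: without sham 2, with DESeq2 (0.80), with both limma fits (0.91 and 0.64 on their own log2 scales) and with the replicate block (0.94).

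Summed over the rows of the rule, the beta subunits reached 46.2 to 50.1 FPKM in CCI and 44.7 to 51.5 FPKM in sham. The 9 alpha subunits summed to 207 to 230.5 FPKM in CCI and 231 to 275 FPKM in sham. This sum includes Scn7a, at 40.9, 39.2 and 38.7 FPKM in CCI 1, 2 and 3 and 39.2, 57.3 and 30.0 FPKM in sham 1, 2 and 3. Whether beta subunits attach to the Scn7a product was not tested, and the spread of Scn7a in sham enters the ratio below. The beta to alpha ratio was 0.242, 0.219 and 0.2 in CCI 1, 2 and 3 and 0.194, 0.184 and 0.215 in sham 1, 2 and 3. The groups overlapped through CCI 3 and sham 3, and the difference was 0.16 on the log2 scale (exact permutation test, two-sided, p = 0.2, where 0.1 is the smallest possible).

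Of the enzymes that cleave beta subunits, all 8 described here were tested and none was called. Bace1, the protease that sheds the outer domain of the beta subunits, measured 5.07 ± 1.70 FPKM in CCI and 4.52 ± 0.121 FPKM in sham (SD, n = 3), a log2 fold change of 0.15 with a 95% interval of -0.37 to 0.67. Only CCI 3, at 7.01 FPKM, lay above the sham libraries, at 4.39 to 4.63 FPKM. CCI 1 and CCI 2 were at 3.78 and 4.43 FPKM. Nicastrin (Ncstn), part of the gamma-secretase that cuts the remaining stub, had a log2 fold change of -0.11, and the 8 genes lay between -0.11 and 0.15. Of 12 genes for other channel partners, all 12 were tested and none was called, with a median of 0.03. Among them were Fgf13, a fibroblast growth factor homologue that binds the channel tail, at -0.04, and Ank3, the ankyrin that anchors channels at the axon initial segment and nodes, at 0.10. Of 10 adhesion partners 9 were tested and none was called, with a median of -0.12. Contactin-1 (Cntn1), which binds beta subunits and helps to bring channels to the surface, was at -0.08, and neurofascin (Nfasc), the nodal adhesion protein, at -0.14. Cntnap2 had no row of its name.

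Over these 4 lists, 38 genes were tested and 0 were called, against 3.83% of all rows. At an unadjusted p under 0.05, without the size limit, 6 of the 38 differed, 5 of them lower in CCI (Scn1a, Scn8a, Scn11a, Cntn2 and Nfasc) and 1 higher (L1cam). This criterion was reached by 10.7% of all rows tested. With DESeq2 the same limits called Scn3a alone of the 38.

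**Figure D3:**
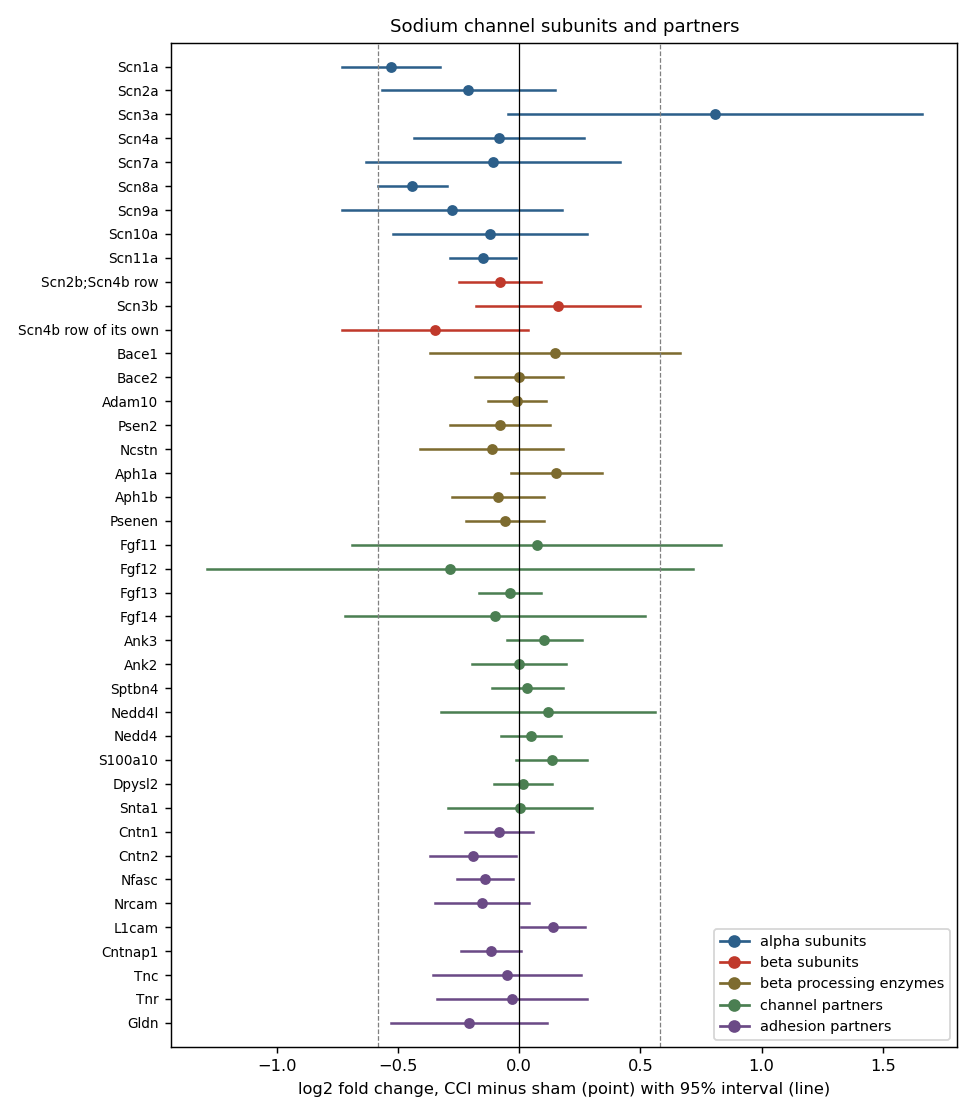
Log2 fold change, CCI minus sham (points), with its 95% interval (lines) for the tested sodium channel subunits and partners and for the separate Scn4b row, from edgeR's quasi-likelihood test. Dashed lines mark 0.58 in either direction; the joined Scn2b;Scn4b row and Scn3b have intervals that lie inside them, and that of the separate Scn4b row extends to -0.73.

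Of the markers of large sensory neurons, 9 of 10 had a log2 fold change below 0. So did 8 of the 9 alpha subunits, the joined row and the separate Scn4b row. The same sign was held by 7 of 8 Schwann cell markers and 6 of 9 nociceptor markers. The median log2 fold change was -0.40 for large sensory neuron markers, -0.14 for Schwann cell markers and -0.15 for nociceptor markers. All 10 markers of large sensory neurons were tested. By edgeR 7 of them had an unadjusted p under 0.05, all lower in CCI, with Pvalb and Hapln4 called at the limits of the study. Their summed level was 3990 to 4320 CPM in CCI and 5140 to 5640 CPM in sham, and none of them was at 0. Most of this sum was Nefh, the heavy neurofilament, at 2170 to 2584 CPM in CCI and 3272 to 3675 CPM in sham. Pvalb, the parvalbumin of proprioceptors, was at a log2 fold change of -0.69, and Nefh at -0.55. Spp1, which encodes osteopontin, was the 1 marker with a log2 fold change above 0, at 0.25, and Runx3 and Ntrk2, at -0.11 and -0.17, did not reach the limit on p either. The nociceptor markers summed to 1440 to 1480 CPM in CCI and 1440 to 1550 CPM in sham, with none of 9 called. Schwann cell markers summed to 7100 to 9590 CPM in CCI and 8630 to 9740 CPM in sham, and satellite glia markers to 1820 to 1990 CPM and 1810 to 1940 CPM, with none of 8 and none of 5 called. Of 10 macrophage markers 5 were higher in CCI, and none of 3 erythrocyte markers was called. The part of these cell groups in the channel values was not tested. Of 12 skeletal muscle markers tested, 6 were called lower in CCI, 1 without sham 1, CCI 2 or CCI 3, and 11 without sham 2; sham 1 held the highest level of them. Without sham 1 the separate Scn4b row had a log2 fold change of -0.42 (unadjusted p = 0.0628 in edgeR's test).

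Among 13262 other protein-coding rows of at least 1 CPM on average (13263 for the separate Scn4b row), those whose log2 CPM followed the joined Scn2b;Scn4b row most closely over the 6 libraries were Mmp24, Eps8, Slc5a7, Gde1 and Hras, with Pearson's r of 0.988 to 0.992. For Scn3b they were Marchf4, Mrpl37, Sema6c, Nisch and Crocc, with r of 0.972 to 0.99. For the separate Scn4b row they were Dlgap3, Gpr89b, Ampd2, Wrap73 and Syt3, with r of 0.989 to 0.995. These rows were picked as the highest among this many, over 6 points that share the groups and the library scaling. How high an r such a choice gives by chance was not tested. An r of at least 0.9 was reached by 130 rows (0.98%) for the joined row, 100 (0.754%) for Scn3b and 409 (3.08%) for the separate Scn4b row.

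Within 100 kb of the joined row the tested neighbours with a symbol were Mpzl2 and Mpzl3, both relatives of myelin protein zero, and Smim35. Mpzl2 and Mpzl3 had log2 fold changes of -0.13 and -0.01. Smim35 was called higher in CCI, with a log2 fold change of 0.74 (edgeR, unadjusted p = 0.0273, adjusted p = 0.385). It was at 11.1 CPM in CCI 1, 6.65 and 5.67 CPM in CCI 2 and CCI 3, and 4.30 to 4.89 CPM in sham. Near Scn3b, the protein-coding rows of Zfp202 and Gramd1b were at 0.17 and -0.13 and were not called.

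**Figure D4:**
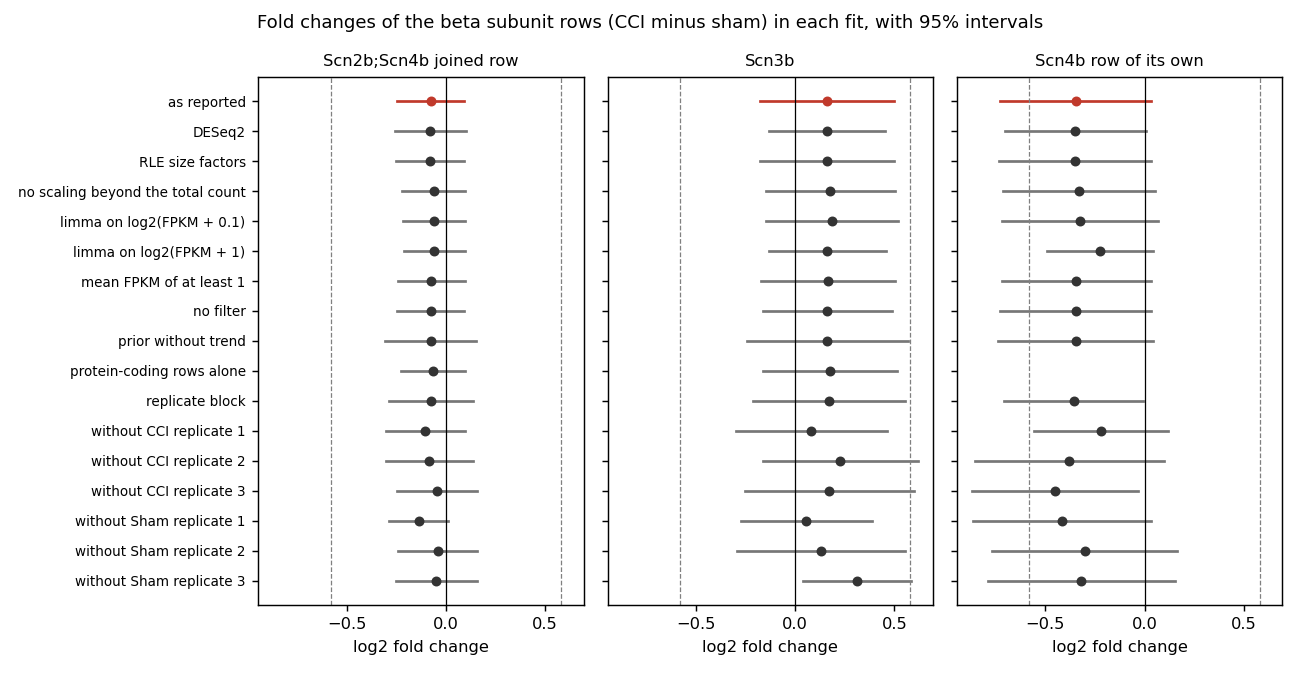
Log2 fold change, CCI minus sham, of the joined Scn2b;Scn4b row, the Scn3b row and the separate Scn4b row in each fit (points), with 95% intervals (lines) and dashed lines at 0.58 in either direction; the protein-coding fit does not hold the separate Scn4b row. Each row keeps its sign, between -0.14 and -0.04 for the joined row, 0.06 and 0.31 for Scn3b, and -0.45 and -0.22 for the separate Scn4b row.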

How the data were processed

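Total RNA of the DRG of 6 rats was sequenced after depletion of ribosomal RNA, and per the labels the authors used HISAT2 2.0 and StringTie 1.3.0. The counts are whole reads per row that the authors deposited without normalization, between 75423546 and 87615743 per sample. The FPKM values, also deposited, are the authors' values scaled to row length and library size. Rows without a symbol held 5.37% to 5.72% of the counts. Columns were matched to samples by title, and 1 rat was 1 replicate.

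Groups were compared with edgeR 4.0.16 (TMM factors of 0.988 to 1.01, trended prior, quasi-likelihood test) on the 26663 rows with a mean of at least 0.5 FPKM, with Benjamini-Hochberg adjustment over all of them. CPM values use the TMM-scaled library sizes, and 95% intervals come from that fit. FPKM ratios were tested with exact permutation tests. The members, gene lists and limits were chosen with earlier results of these data known. Some genes of the channel lists are not reported here and were left out of the lists, sums and counts. The genes named are the members, the genes of the channel lists, marker genes past the limits or needed to show a level, the 5 rows most like each member row (log2 CPM with a prior of 0.5), and tested neighbours within 100 kb. The fit was tested on simulated counts. Alternatives used limma 3.58.1 and DESeq2 1.42.0, and promoter sequences came from RefSeq. R 4.3.3 and Python 3.11.15 were used.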

Additional observations from a re-analysis of the deposited data

How the results depend on the processing

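The beta subunit rows kept their direction and stayed uncalled in all fits of the joined Scn2b;Scn4b row (log2 fold change -0.14 to -0.04), of Scn3b (0.06 to 0.31) and, as a choice made after seeing the data, of the separate Scn4b row (-0.45 to -0.22), over 16, 16 and 15 alternatives; the fit of protein-coding rows alone does not hold the last. Their adjusted p ranged from 0.529 to 0.939, 0.535 to 0.922 and 0.463 to 0.744. The log2 difference of the joined row to Scn3b stayed between -0.36 and -0.19 and that of the beta to alpha ratio between 0.09 and 0.22 with a library left out. Over all rows, 686 were higher and 336 lower; limma on log2(FPKM + 1) gave 410 and 161, and protein-coding rows alone 353 and 115. At an adjusted p under 0.05 there were 17 and 8, against 427 and 320 with DESeq2, 0 and 0 with a replicate block, and 41 and 35 for protein-coding rows alone. With a library left out they ranged from 3 to 40 higher and 3 to 21 lower.

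Deviations from the group mean correlated at -0.01, -0.03 and -0.07 between same-numbered libraries. No CCI library correlated best with the sham library of its number. Such deviations cancel out within a group of so few libraries, so these correlations depend on each other and cannot decide whether same-numbered libraries belong together. Whether same-numbered rats shared a day of surgery or of library preparation was not tested. The replicate block gave 617 and 318 rows and log2 fold changes of -0.08 for the joined row, 0.17 for Scn3b and -0.36 for the separate Scn4b row. For the separate Scn4b row the unadjusted p was 0.0466 and the adjusted p 0.56 in edgeR's test. The ratio of Scn4b to Scn2b, which was planned, could not be computed because both lie on 1 row. The beta subunit rows held 448 or more reads in every library, and how much of each interval comes from counting error was not tested.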
